A study of Homo sapiens with 6 samples.

Results

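The STAT factors and the SOCS proteins that restrain them were measured in HepG2 cells, a human hepatoma line, during exposure to an extract of the plant Scutellaria baicalensis. The genes were STAT2, STAT3, STAT4, STAT5A, STAT5B, STAT6, SOCS1, SOCS2 and SOCS3. They were taken by name, with every non-control probe whose gene name in the scanner files was one of these, which gave 18 probes of 9 genes among 41000 probes and 30982 gene names. The series held 6 one-colour Agilent arrays. RNA on one array came from control cells and on each of the others from cells exposed to the extract at 100 µg/ml for 1, 3, 6, 12 or 24 h, 1 array per time. All 6 cultures were of the same unmodified line, and the labels give neither a time nor a vehicle for the control, so every difference here is against 1 control array and has no replicate check. The labels describe RNA from liver tissue of mice as well as from these cells, but all 6 arrays are labelled as the human line.

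STAT proteins wait in the cytoplasm until a cytokine or hormone receptor is engaged. Janus kinases bound to the receptor then phosphorylate them, and they pair, enter the nucleus and switch on genes. STAT3 carries the interleukin-6 signal that drives the acute-phase response of hepatocytes, STAT5A and STAT5B carry growth hormone and prolactin signals, STAT2 serves type I interferon, STAT4 interleukin-12 and STAT6 interleukin-4. SOCS genes are themselves STAT targets: SOCS1 and SOCS3 block Janus kinases and receptors, SOCS2 dampens growth hormone signalling, and the loop limits how long a signal lasts.

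Several results below turn on which stretch of a transcript a probe reads, so the probes of STAT5A, SOCS3, STAT3 and SOCS1 are shown first. Sequences and positions come from the scanner files, which name no genome build, and no exon or UTR annotation of that build was used here. The probe nearest the 3′ end of each gene is printed as its first 30 of 60 bases.

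For STAT5A the pair is shown because its probes differed at every time at which both were measured. The 3′-most probe lies at chr17:37717009-37717068 on the plus strand. The other lies 3171 bases upstream at chr17:37713838-37714610, where its 60 bases spread over 773 bases with 713 skipped, so it spans a splice junction.
STAT5A probe A_23_P207367: tctctgtttgtaaccttgtcgacaaagagg
STAT5A probe A_24_P173088: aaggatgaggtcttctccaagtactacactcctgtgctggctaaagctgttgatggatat

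For SOCS3 the probes lie 1432 bases apart on the minus strand, the 3′-most at chr17:73864722-73864781 and the other at chr17:73866154-73866213.
SOCS3 probe A_23_P207058: gcaactaaacaaacacaaagtattctgtgt
SOCS3 probe A_23_P351069: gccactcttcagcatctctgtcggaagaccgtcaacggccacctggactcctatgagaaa

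For STAT3 a pair of probes at chr17:37727910-37727969 and chr17:37727930-37727989 on the minus strand overlaps, and capitals mark the 40 bases they share. The 3′-most STAT3 probe lies 8461 bases away at chr17:37719449-37719508.
STAT3 probe A_23_P107206: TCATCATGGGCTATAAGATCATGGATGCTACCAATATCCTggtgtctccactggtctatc
STAT3 probe A_24_P116805: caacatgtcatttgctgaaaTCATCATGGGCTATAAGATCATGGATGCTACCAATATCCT
STAT3 probe A_23_P100795: agtttctgtggaattctgtttgttaaatca

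For SOCS1 the probes lie 559 bases apart on the minus strand, at chr16:11255885-11255944 and chr16:11256444-11256503, and are shown as a pair that lay below the control together from 3 h.
SOCS1 probe A_23_P420196: acctgaactcgcacctcctacctcttcatg
SOCS1 probe A_24_P48014: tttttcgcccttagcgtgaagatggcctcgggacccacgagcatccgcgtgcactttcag

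The probes of STAT5A shared no run of more than 6 bases with the probes of its close relative STAT5B. They were not compared with the rest of the STAT5B transcript, so whether they also read STAT5B was not tested. In RefSeq annotation of GRCh38.p14, where all 9 symbols were found, STAT5B, STAT5A and STAT3 follow one another on chromosome 17.

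Values are the scanner software's background-corrected intensity, in scanner units, and its log2 after subtracting the 75th percentile of the array. A difference is treated minus control on that scaled log2 scale, and a probe counted as measured when it was well above background and unsaturated on both arrays. As error, the scatter between probes of the same gene over the whole array was turned into an SD for 1 probe, which was 0.38, 0.49, 0.79, 0.70 and 0.71 in order of time. It leaves out any spread between cultures. The arrays differed in brightness, with a 75th percentile of 140 units at 6 h and 376 at 12 h against 697 to 1710 on the others, and 49.5% and 64.4% of probes well above background against 69.8% to 73.3%. The part of this dimness in the values at 6 and 12 h was not tested. Markers of the labelled line were present, albumin and transferrin each having a probe saturated on all 6 arrays. The measured hepatocyte marker probes, 6 to 10 of 15, had a median difference of -0.10, -0.42, 1.02, 0.78 and -0.65 in order of time, and the part of this in the results was not tested. HBB of red cells and CDH5 of endothelium were well above background on no array and PTPRC of leukocytes on 1 by 1 probe, whereas CD79A and CD68 of blood cells were well above background on all 6.

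Of the 18 probes, 8 were well above background on all 6 arrays, 6 on 4 or 5, 2 on 1 and 2 on none, and none was saturated. At 1 h 14 were measured, of which 1 was at least 2-fold higher and 2 were at least 2-fold lower, against 2.91% and 0.922% of the 27448 probes measured on the whole array. At 3 h 1 of 14 was higher and 3 were lower, against 4.85% and 4.56%. At 6 h 1 of 8 was higher and 1 was lower, against 23.5% and 10.8%. At 12 h none of 12 was higher and 3 were lower, against 13.5% and 10.1%. At 24 h 1 of 14 was higher and 2 were lower, against 8.78% and 13.4%. The median difference of the measured STAT and SOCS probes was 0.22, -0.045, -0.19, -0.46 and 0.035 at the 5 times, where that of all measured probes was -0.036, -0.002, 0.32, 0.17 and -0.025. All of the differences of at least 2-fold were on probes of STAT5A, SOCS3, STAT3 and SOCS1.

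**Figure D1:**
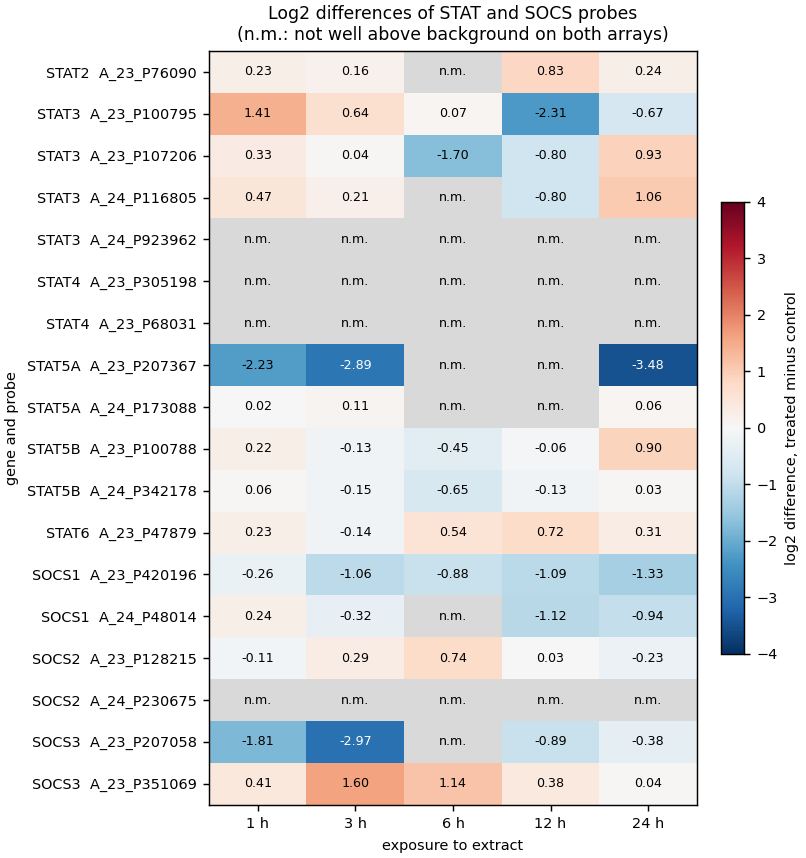
Log2 difference from the control (colour and printed value) of the 18 probes, in rows, at the 5 exposure times, in columns; grey cells marked n.m. were not well above background on both arrays. The 3′-most probes of STAT5A and SOCS3 hold the deepest blue at 1 and 3 h while the other probe of each gene is near 0 or above it.

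STAT5A gave different readings on its probes. Each array reads a whole culture, so a lower level in every cell and fewer cells with the transcript cannot be told apart. On the 3′-most probe the signal was 246 units in the control and 74.5, 81.6, 4.07, 4.15 and 46.1 units after 1, 3, 6, 12 and 24 h, with a scanner error of 24.7 units in the control and 6.19 at 24 h. Every treated array was below the control, and the 6 and 12 h arrays were not well above background. The difference was -2.23 at 1 h, or 4.68-fold lower and 5.86 times the error. It was -2.89 at 3 h (7.40-fold lower, 5.89 times the error) and -3.48 at 24 h (11.2-fold lower, 4.91 times the error). At 6 and 12 h only a bound can be given, at least 3.55-fold and at least 11.6-fold lower, where the dim reading is replaced by the higher of its own signal and the lowest signal among probes well above background on that array, as in every such bound below.

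The junction-spanning probe of STAT5A read 29.0 units in the control and 41.7, 76.6, 5.37, 11.0 and 63.5 units in order of time. Its scanner error was 3.73 units in the control and 8.75 at 3 h. After scaling it stood at -4.59 in the control and between -4.57 and -4.48 at 1, 3 and 24 h, so these 4 arrays were nearly level. The differences were 0.021, 0.11 and 0.064, at most 0.22 times the error. At 6 h it was not well above background and no fold can be given, and at 12 h it was at least 1.37-fold lower. That bound, 0.46 in log2, was smaller than the error of 0.70. The bounds given below for SOCS3, SOCS1, SOCS2 and STAT4 were likewise smaller than the error at their times.

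The gap between the STAT5A probes, the distance between their differences, was 2.25 at 1 h, 2.99 at 3 h and 3.55 at 24 h, or 4.75-fold, 7.96-fold and 11.7-fold. Among genes with a pair of measured probes, gaps at least as wide were seen in 8 of 5109 at 1 h (0.157%), in 4 of 5069 at 3 h (0.0789%) and in 16 of 5033 at 24 h (0.318%), STAT5A included. By the smallest of its gaps at these times STAT5A ranked 2 among 4879 genes. Since the STAT5A pair was picked for its discordance, these shares describe where it lies and test nothing. With another background correction, normexp with an offset of 50, the 3′-most probe gave -1.68, -2.29 and -2.36 and the signed gap narrowed to -1.40, -1.82 and -2.06. In the authors' deposited table the signed gap was -1.91, -2.42 and -2.89.

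**Figure D2:**
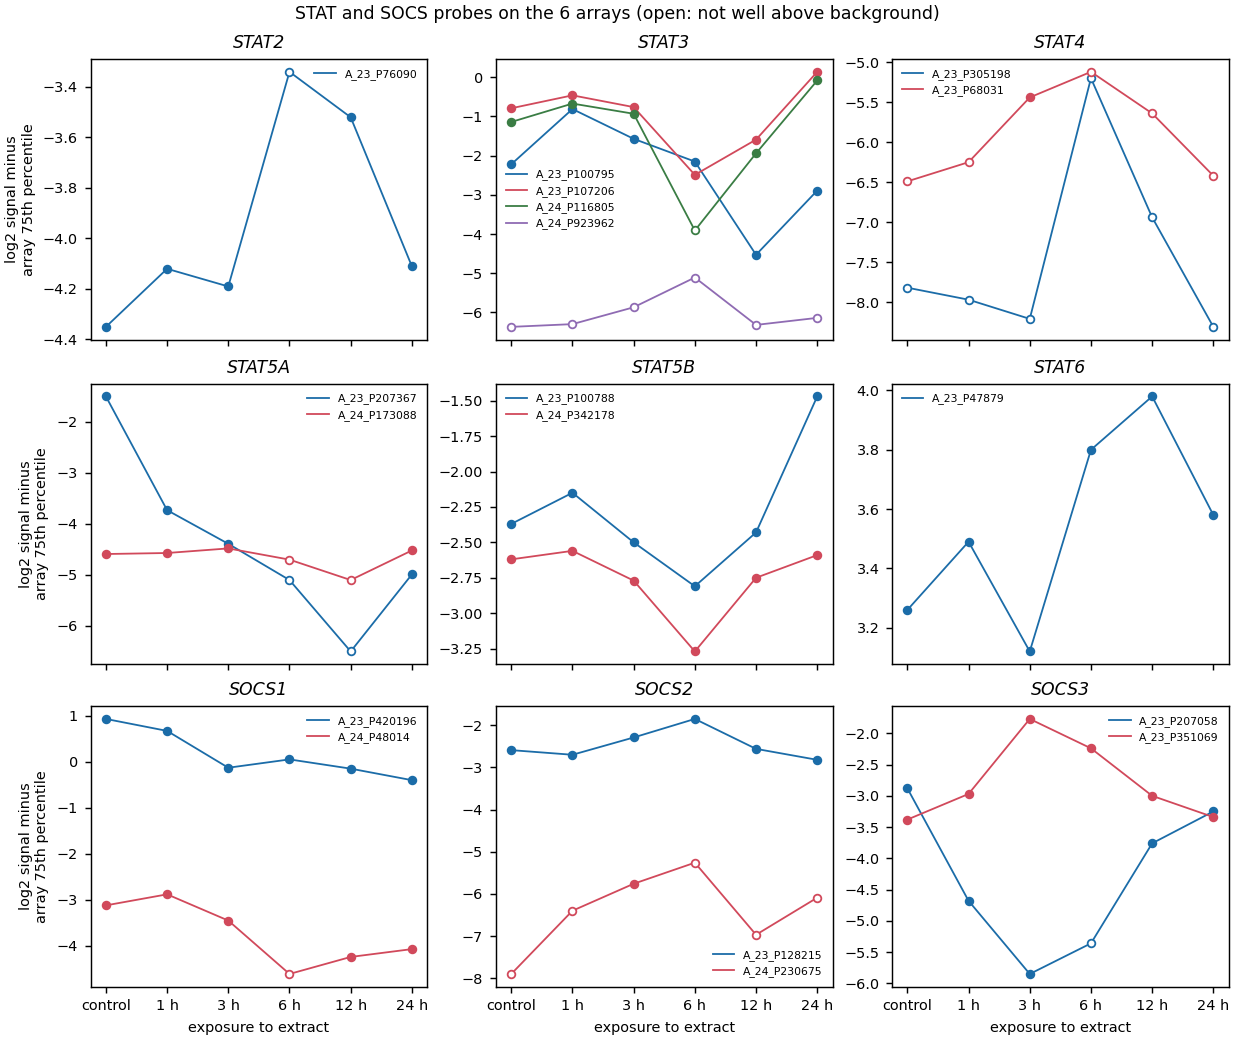
Scaled log2 signal (log2 signal minus the 75th percentile of the array, vertical axis) on the 6 arrays, from control to 24 h, in 1 panel per gene and 1 line per probe; open circles were not well above background and the vertical axes differ. In STAT5A one probe starts at -1.50 and lies below -3.7 on every treated array while the other stays between -5.10 and -4.48.

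SOCS3, the feedback inhibitor that interleukin-6 signalling induces through STAT3, split as sharply but for a shorter time. On the 3′-most probe the signal was 95.0 units in the control and then 38.5, 29.7, 3.42, 27.7 and 153 units. On the upstream probe it was 67.0, 126, 500, 29.7, 47.0 and 144 units on the same arrays. At 3 h the first was at its lowest measured scaled level and the second at its highest, and by 24 h both were back near the control.

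The 3′-most SOCS3 probe was lower by -1.81 at 1 h, 4.75 times the error, and by -2.97 at 3 h, which is 7.85-fold and 6.07 times the error. It was at least 1.37-fold lower at 6 h, and its differences of -0.89 at 12 h and -0.38 at 24 h were 1.27 and 0.53 times the error. The upstream probe differed by 0.41, 1.60, 1.14, 0.38 and 0.037, the second value being 3.04-fold and 3.28 times the error. The gap of 4.58 at 3 h, or 23.9-fold, was the widest of 5069 genes. At 1 h it was 2.21, with 9 of 5109 genes at least as far apart, and by 24 h it was 0.42, within its error of 1.00. With normexp the 3 h values were -1.88 and 0.85, and in the authors' deposited table the 3′-most probe gave -2.06. Normexp also turned the 3′-most probe to 0.70 at 12 h and put the upstream probe at 2.41 at 6 h and 1.26 at 12 h.

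**Figure D3:**
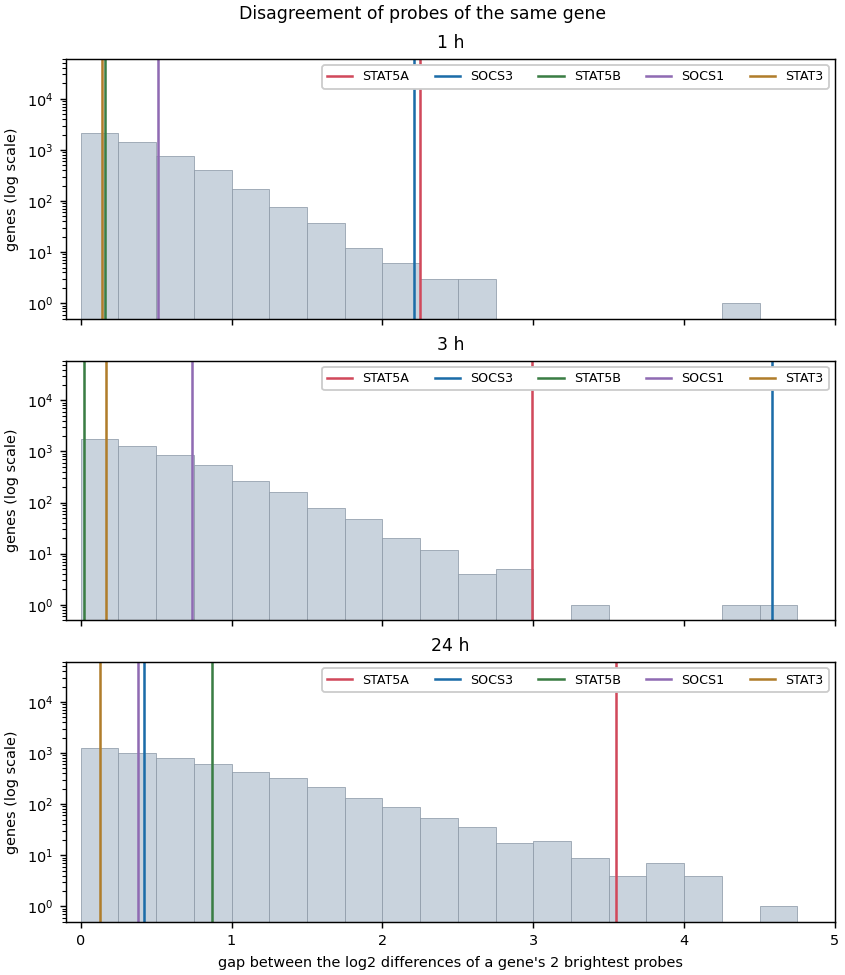
Number of genes (vertical axis, log scale) by the gap between the log2 differences of their 2 brightest probes (horizontal axis, bins of 0.25) at 1, 3 and 24 h; coloured lines mark STAT5A, SOCS3, STAT5B, SOCS1 and the overlapping STAT3 pair. STAT5A lies in the far tail at all 3 times, SOCS3 at 1 and 3 h, and STAT5B, SOCS1 and STAT3 lie in the body.

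STAT3, the factor of the acute-phase response, was read by an overlapping pair, by a distant 3′ probe and by another probe that was well above background on no array. On the arrays where both were measured, at 1, 3, 12 and 24 h, one of the overlapping pair differed from the control by 0.33, 0.038, -0.80 and 0.93 and the other by 0.47, 0.21, -0.80 and 1.06. The widest of these gaps was 0.17, so probes sharing 40 bases read alike on arrays where both were measured. At 6 h the first was lower by -1.70, 2.15 times the error, from 402 units in the control to 24.9, a mean over 10 spots in the control and 9 at 6 h. The second was at least 4.57-fold lower at 6 h. The sign at 6 h depended on the background correction, since normexp gave 0.46 for the first probe.

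The 3′-most STAT3 probe followed another course. Its signal was 150 units in the control and 564, 575, 31.6, 16.3 and 197 units on the treated arrays. It was highest against the control at 1 h, by 1.41 or 2.65-fold (3.70 times the error), and differed by 0.64 at 3 h and 0.069 at 6 h. At 12 h it was lower by -2.31, 4.97-fold and 3.30 times the error, and at 24 h by -0.67. Normexp put it at 0.97 at 1 h, below 2-fold, and turned the 12 h value to 0.35. Its gap to the first probe of the overlapping pair was 1.08 at 1 h, which 4.48% of gene pairs reached, and 1.61 at 24 h, which 9.74% reached. Gaps this wide were thus more common among those pairs than gaps as wide as that of STAT5A. The gene pairs are the 2 brightest probes of each gene, and the 3′-most STAT3 probe is not in the STAT3 pair.

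SOCS1, which blocks Janus kinases directly, was lower on both of its probes at 3, 12 and 24 h. Its 3′-most probe gave 1330 units in the control and 1570, 1560, 145, 338 and 1110 units on the treated arrays. Scaled for the brightness of each array, this was a difference of -0.26, -1.06, -0.88, -1.09 and -1.33, the last being 2.51-fold lower and 1.87 times the error. The second SOCS1 probe gave 79.9, 134, 157, 5.72, 19.9 and 87.0 units on the same arrays. Its differences were 0.24, -0.32, -1.12 and -0.94 at 1, 3, 12 and 24 h, and it was at least 1.15-fold lower at 6 h. The probes were 0.029 apart at 12 h and 0.38 at 24 h, inside an error of 0.99 and 1.00, and the single value farthest from 0 in errors was -1.06 at 3 h, at 2.17. With normexp the first probe kept its sign at every time, between -0.24 and -1.25, whereas the second turned to 0.81 at 12 h.

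STAT5B, the other growth hormone factor, differed little from the control on either probe with the scanner's own background correction. The 3′-most probe gave 135, 223, 303, 19.9, 69.9 and 527 units from the control to 24 h, and the second gave 113, 167, 250, 14.5, 55.9 and 242. Their differences lay between -0.65 and 0.22 from 1 to 12 h, each within its error. At 24 h the first was higher by 0.90, 1.26 times the error, against 0.032 for the second, a gap of 0.87 that 32.9% of gene pairs reached. With normexp both probes were instead more than 2-fold higher at 6 h, by 1.57 and 1.63, and higher by 0.70 and 0.70 at 12 h. The STAT5A decrease on the 3′-most probe thus had no counterpart of that size on either STAT5B probe.

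STAT6, the interleukin-4 factor, had a single probe, with 6690 units in the control and 11100, 14900, 1950, 5940 and 17400 units on the treated arrays. Its differences were 0.23, -0.14, 0.54, 0.72 and 0.31, and the one at 12 h, 1.03 times the error, was the farthest from 0 in errors. STAT2, the partner of the type I interferon response, gave 34.2, 56.9, 93.6, 13.8, 32.9 and 84.4 units, the 6 h array not being well above background. Where measured it differed by 0.23, 0.16, 0.83 and 0.24, of which the third, at 12 h, was 1.19 times the error. Neither gene reached 2-fold at a measured time on this scale, whereas normexp put STAT2 at 1.49 at 12 h and turned STAT6 to -0.89 at 6 h.

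SOCS2, the growth hormone feedback gene, gave 116, 152, 349, 38.8, 63.9 and 207 units on its 3′-most probe, with differences from -0.23 to 0.74, each within its error. With normexp this probe gave 1.99 at 6 h and 0.93 at 12 h. Its second probe was well above background at 3 h alone, at 31.6 units, which is at least 1.08-fold higher than the control. STAT4, a factor best known in lymphocytes, was well above background on 1 probe at 3 h, with 39.3 units and at least 1.35-fold higher than the control, and on the other probe on no array. These readings lay close to the limit of measurement.

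The fit over time asked whether a probe followed a line in log2(hours + 1), with the control placed at 0 h by assumption. Over 28649 probes limma called 0% at a Benjamini-Hochberg adjusted p of 0.05, and 3160, or 11.0%, had an unadjusted p under 0.05, of which 956 rose and 2204 fell. Of the 14 STAT and SOCS probes in the fit, the 3′-most STAT5A probe had a fitted change of -3.85 ± 0.96 (SE) from 0 to 24 h, with limma adjusted p = 0.284. The SOCS1 probes had fitted changes of -1.30 ± 0.42 and -1.43 ± 0.57, with limma adjusted p = 0.340 and 0.421. The junction-spanning STAT5A probe had -0.21 ± 0.43 and the SOCS3 probes 0.11 ± 1.24 and -0.008 ± 0.74. Without the dim 6 h and 12 h arrays limma called 2375 of the 28649 probes and 1 of these 14, a share near that of the array. The 1 called was the 3′-most STAT5A probe, at -3.01 with limma adjusted p = 0.0408, in a fit with fewer residual degrees of freedom. Leaving out any 1 array, limma called none, with 1608 to 5364 probes at an unadjusted p under 0.05. Across all the other settings tried, the lowest adjusted p of a member ran from 0.189 to 0.958.

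The enzymes, receptors, ligands, inhibitors and targets around these genes were read from lists of the pathway, whose counts are small and stand beside the shares of all measured probes. Among the 4 Janus kinases, which phosphorylate STATs, 1 of 8 measured probes was at least 2-fold higher at 1 h and at 3 h, against 2.91% and 4.85% of all probes, and none was lower. At 6 h 1 of 6 was higher and 1 lower (all probes 23.5% and 10.8%). At 12 h 2 of 8 were lower and none higher (10.1% and 13.5%), and at 24 h 1 was higher and 1 lower (8.78% and 13.4%). JAK1 was lower by -1.68 at 6 h and -1.22 at 12 h and higher by 0.95 at 24 h on one probe, while its other probe stayed between -0.50 and -0.13. TYK2 was higher by 1.19, 1.01 and 1.42 at 1, 3 and 24 h on one probe, which differed by -0.061 at 12 h. Its other probe lay between -0.12 and 0.23. JAK2 differed by -0.42, -0.39, -0.62 and 0.25 at 1, 3, 12 and 24 h. JAK3 had one probe higher by 1.14 at 6 h and another lower by -1.15 at 12 h. Disagreement between probes was thus found in these kinases as well.

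Of 34 receptor probes, 25 were measured at 1, 3 and 24 h, with 0, 0 and 1 at least 2-fold higher (all probes 2.91%, 4.85% and 8.78%) and 0, 1 and 2 lower (0.922%, 4.56% and 13.4%). At 6 h 3 of 18 were higher and 3 lower (23.5% and 10.8%), and at 12 h 3 of 23 were higher and 3 lower (13.5% and 10.1%). IFNGR1, the ligand-binding chain of the interferon-gamma receptor, was lower by -0.61, -0.57, -2.66, -2.02 and -2.20 across the times. IFNGR2, its signalling chain, differed by 0.52 and 0.17 at 1 and 3 h and was lower by -2.72 at 12 h and -1.75 at 24 h. IL6ST, the shared chain gp130 of the interleukin-6 family, lay between -0.93 and 0.11. EPOR was lower by -1.14 at 3 h and -1.41 at 6 h on one probe, and IL11RA had a probe higher by 1.28 at 6 h. LIFR was higher by 1.26 at 12 h on one probe and lower by -1.15 on another. No probe of the receptors for growth hormone (GHR) or leptin (LEPR) was well above background on any array.

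Of 13 ligand probes, 5 were measured at 1 h, with none higher and 1 lower (all probes 2.91% and 0.922%). At 3 h none of 6 was higher and 1 was lower (4.85% and 4.56%). At 6 h 2 of 4 were higher and 1 lower (23.5% and 10.8%), and at 12 h 1 of 5 was higher and 1 lower (13.5% and 10.1%). At 24 h 2 of 6 were higher and none lower (8.78% and 13.4%). IL11, a gp130 cytokine, was lower by -1.15 at 1 h and -1.91 at 3 h and higher by 1.19, 1.67 and 1.55 at 6, 12 and 24 h. LIF was lower by -1.41 at 6 h and -1.05 at 12 h, and CLCF1 differed by 0.93 at 3 h and 1.61 at 24 h. IL6 itself was well above background on 1 array.

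Among other inhibitors, 1 of 23 measured probes was higher and none lower at 1 h (all probes 2.91% and 0.922%), and 1 of 25 was higher and 2 were lower at 3 h (4.85% and 4.56%). At 6 h 3 of 16 were higher and 2 lower (23.5% and 10.8%), and at 12 h 3 of 21 were higher and 1 lower (13.5% and 10.1%). At 24 h 1 of 25 was higher and 2 were lower (8.78% and 13.4%). SOCS7 was higher by 2.91, 3.22 and 1.29 from 6 to 24 h on one probe, whereas the other gave 0.27 at 12 h and 0.43 at 24 h. CISH, the SOCS family member induced by STAT5, differed by -0.65 at 1 h and -0.31 at 3 h on one probe and by 1.12 and 1.23 on the other. The first CISH probe read 206 units in the control. The second read 20.3 and was well above background on 4 arrays. SOCS5 was lower by -1.93 at 12 h on one probe and by -0.32 on the other, and the phosphatase PTPN2 was higher by 1.36 at 6 h. PIAS1, which blocks STAT binding to DNA, was lower by -1.43 at 3 h on one probe and by -0.80 on the other.

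Among known STAT3 targets of liver cells, none of 16 measured probes was higher and 1 was lower at 1 h (all probes 2.91% and 0.922%), and 2 of 15 were higher and 2 lower at 3 h (4.85% and 4.56%). At 6 h 3 of 16 were higher and 3 lower (23.5% and 10.8%), and at 12 h 1 of 18 was higher and 1 lower (13.5% and 10.1%). At 24 h 2 of 14 were higher and 3 lower (8.78% and 13.4%). PIM1, a kinase that STAT3 and STAT5 induce, was lower at every time, by -1.42, -3.02, -3.75, -2.14 and -1.94, where the error was 0.38 at 1 h and 0.79 at 6 h. The bright acute-phase genes A2M, HP, ORM1, FGG and SERPINA3 had saturated spots, which left few measured values, and the fibrinogen gene FGA gave -1.45 at 6 h on one of 3 probes. JUNB differed by -0.94 at 1 h and 0.002 at 24 h on one probe and by 0.45 and 2.05 on the other. In the control the first JUNB probe read 2850 units and the second 25.9. HAMP, the iron hormone hepcidin, differed by -0.57, -1.07, -0.59, 0.75 and -1.53 across the times. HP was higher by 1.44 at 6 h and lower by -1.17 at 24 h.

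Among STAT5 targets, which share PIM1 and CISH with the lists above, 2 of 7 measured probes were higher and 1 lower at 1 h (all probes 2.91% and 0.922%), and 2 of 8 were higher and 1 lower at 3 h (4.85% and 4.56%). At 6 h 1 of 5 was higher and 2 were lower (23.5% and 10.8%), and at 12 h none of 6 was higher and 2 were lower (13.5% and 10.1%). At 24 h 1 of 8 was higher and 2 were lower (8.78% and 13.4%). BCL2L1, an inhibitor of apoptosis, differed by 1.25, 1.04, -0.65, -0.39 and 1.05 across the times on one probe. On the other it was 0.62, 0.31, 0.59 and 0.69 at the 4 times at which it was measured. ONECUT1, a hepatocyte transcription factor, was lower by -1.36, -1.98 and -1.67 from 6 to 24 h. IGF1 was well above background on at most 1 array per probe. The list medians at 3 h were -0.31 for Janus kinases, -0.057 for receptors, -0.58 for ligands, -0.11 for other inhibitors, -0.12 for STAT3 targets and -0.14 for STAT5 targets. At 24 h they were 0.066, -0.090, 0.34, -0.13, -0.008 and 0.14 in that order. The median of all measured probes was -0.002 at 3 h and -0.025 at 24 h.

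**Figure D4:**
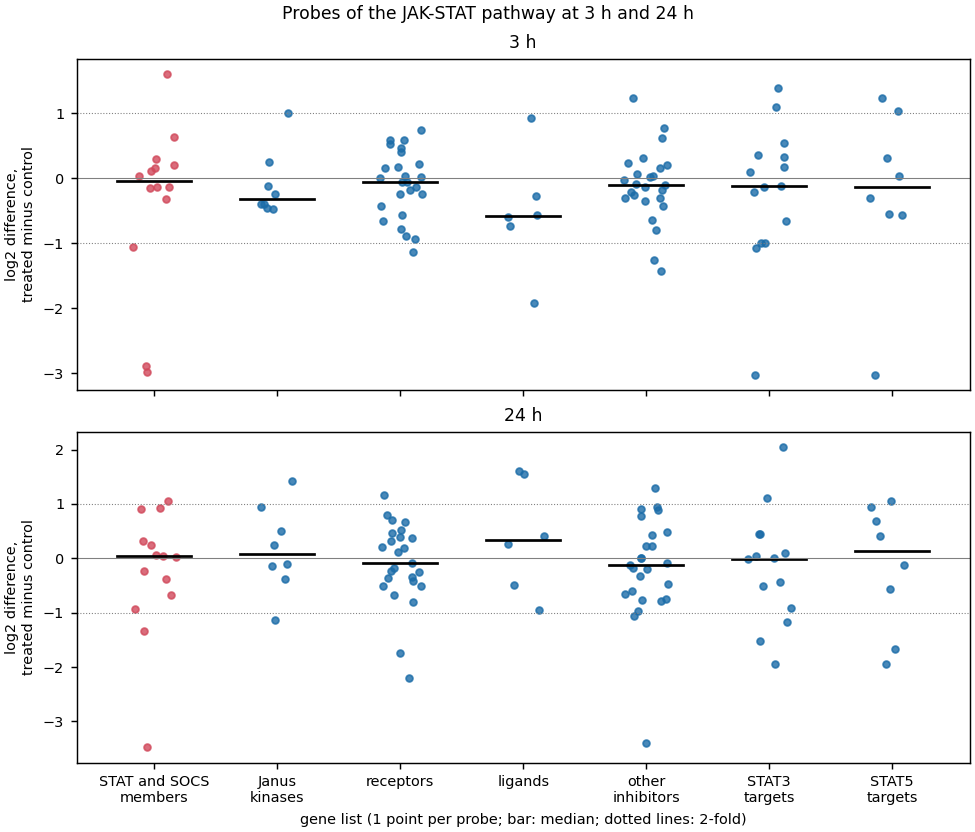
Log2 difference from the control (vertical axis) of each measured probe of the STAT and SOCS genes (red) and of 6 pathway lists (blue) at 3 and 24 h; black bars are medians and dotted lines mark 2-fold. The medians run from -0.58 (ligands) to -0.045 (STAT and SOCS genes) at 3 h and from -0.13 (other inhibitors) to 0.34 (ligands) at 24 h, and single probes of STAT5A, SOCS3, PIM1 and PTPN11 lie far below.

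Some genes had a course much like that of a member. Over the 6 arrays, the scaled signal of the 3′-most STAT5A probe correlated most with AF086154 (r = 0.982), CCDC115 (r = 0.981) and MAP3K7 (r = 0.976), and 61 of 13790 genes exceeded 0.9. The upstream SOCS3 probe correlated most with C3orf22 (r = 0.990), CD518214 (r = 0.977) and LOC654434 (r = 0.962), and 28 genes exceeded 0.9, the fewest of the members compared. SOCS1 was nearest to GOLGA2L1 (r = 0.991), SEMA6A (r = 0.987) and AA779434 (r = 0.983), and STAT5B to PWWP2 (r = 0.990), SEPHS2 (r = 0.986) and ACSL3 (r = 0.982). STAT3 was nearest to RNF8 (r = 0.997), PITPNC1 (r = 0.996) and DDEF2 (r = 0.995), with 454 genes above 0.9. STAT4 was nearest to C16orf28 (r = 0.993), C12orf26 (r = 0.987) and ZNF746 (r = 0.985), and STAT2 to SCOTIN (r = 0.999), GUK1 (r = 0.998) and CR616003 (r = 0.998), with 2200 genes above 0.9. The STAT4 probe was well above background on 1 of the 6 arrays, so its r rests mostly on readings too dim to measure. STAT2 was well above background on 5 arrays and the STAT5A probe on 4. STAT2 ranged over 1.01 log2 units only with its dim 6 h reading, and over 0.83 without it. All points share the same 6 arrays and their brightness, so these values describe likeness and carry no p.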

How the data were processed

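RNA of HepG2 cells was purified, amplified and labelled with Agilent's linear amplification kit, per the labels' protocols. Cy5 is the dye on the labels, while the files hold green-channel columns alone. The deposited intensity values are single-spot scanner output, per the file headers, and include a background-corrected processed signal. They were not scaled between arrays. Neither a scanner software version nor a genome build is given in the sources used here.

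Control spots and spots marked as outliers were dropped, spots of a probe were averaged as log2, and the 75th percentile of each array was subtracted (Python 3.11.15, pandas 2.3.3, numpy 2.4.6). The trend was fitted with limma 3.58.1 in R 4.3.3, with 4 residual degrees of freedom, over probes well above background on at least 3 arrays. The number of arrays limits the precision: no group has a replicate. Repeated spots of a probe had a median SD of 0.0628 to 0.0836 in log2. On simulated data of 28649 probes the trend test recovered 0 of 50 probes at 2-fold, 0 at 4-fold, 2 at 8-fold and 26 at 32-fold. It called 1 unchanged probe. The simulated noise was drawn independently for each probe and array, so it held no shift shared by the probes of an array, unlike arrays that differ in brightness.

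The genes and the pathway lists were chosen with earlier results of these data known. From each list the 2 genes per direction with the largest difference that kept its sign at a neighbouring time by at least 1.5-fold were named, together with JAK1, JAK2, TYK2, IL6ST, CISH and PIM1. GHR, LEPR, EPOR, HAMP, A2M, ORM1, FGG, SERPINA3, JUNB at 1 h, IGF1, IL6 and PTPN11 were named after their values were seen. For members ranging over at least 1 log2 unit, the 3 genes with the highest Pearson r were named. Alternatives were quantile normalization, normexp, the median as centre, the authors' deposited table floored at 1, and for the trend other time scales, filters and arrays left out. One marker of a list is not reported here.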

Additional observations from a re-analysis of the deposited data

How the results depend on the processing

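Of 62 measured differences of STAT and SOCS probes, quantile normalization and centring on the median moved none by more than the error, and the authors' deposited table, compared without 2 of the 18 probes, moved 3. Normexp left 37 within the error and moved 22 by more than it. Beyond these 22, it turned the sign of 3 differences of at least 2-fold, each also by more than the error. They were STAT3 to 0.35 at 12 h on the 3′-most probe and to 0.46 at 6 h on the overlapping one, and SOCS1 to 0.81 at 12 h on the second probe. Counting differences of any size, the sign changed in 20 with normexp, 9 with the deposited table, 2 with quantile normalization and 0 with the median. By its construction normexp adds an offset of 50, which weighs most on dim arrays. Of 14, 14, 8, 12 and 14 measured STAT and SOCS probes in order of time, 0, 0, 5, 2 and 0 were then at least 2-fold higher. Those at least 2-fold lower numbered 2, 3, 0, 0 and 2. The shares of all probes that reached 2-fold with normexp were not counted, so these numbers have no array-wide share beside them. Normexp also shifted the median of all probes from 0.17 to 0.48 at 12 h and from -0.002 to -0.19 at 3 h. The signed STAT5A gap became -1.40, -1.82 and -2.06 at 1, 3 and 24 h. The trend test called 0 probes of the array, and 0 of the 14 members in it, under each alternative run for it except one. Without the 6 h and 12 h arrays it called 2375 of 28649 probes and 1 of the 14. Centring on the median was not run for the trend. No paired analysis was possible because each group holds 1 array. Values at 6 and 12 h are limited by signal over background, and nothing here measures the spread between cultures.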

Other observations

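Other genes also had probes that differed from each other at 1, 3 and 24 h alike, and are named here after their values were seen. LOC440104 ranked above STAT5A by its smallest gap: one probe gave -0.23, -0.63 and -0.31 at these times and the other -4.58, -4.98 and -3.42. NALP1, the inflammasome sensor, followed STAT5A, with 0.11, 0.025 and -0.12 on one probe and -2.40, -2.25 and -2.14 on the other. In the genes that followed, one probe was higher than the control. The mitochondrial carrier SLC25A25 gave 0.97, 1.65 and 1.43 on one probe against -1.04, -0.22 and -0.53 on the other. FADD, the adaptor of death receptors, gave 1.36, 2.10 and 2.11 on one probe and -0.39, -0.038 and -0.12 on the other. SRF gave 1.94, 2.69 and 2.48 against 0.20, 0.45 and 0.55. PTPN11, a phosphatase of the same pathway, was lower by -3.39 at 24 h on one probe, well above background on 4 arrays. Other PTPN11 probes gave -0.65 and 0.48 at 24 h.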
